A study of Mus musculus with 69 samples.

Results

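The 10 genes described here encode proteins of the neuronal microtubule cytoskeleton and the growth cone: the stathmins Stmn2, Stmn3 and Stmn4, the growth cone protein Gap43, the neuronal tubulin Tubb3, the microtubule-associated proteins Map2, Mapt, Map1b and Dcx, and the collapsin response mediator Dpysl3. They were chosen by symbol from a total of 55964 gene IDs, and each had an entry in every count table. Their transcripts were counted in 69 RNA-seq libraries of pituitary, hypothalamus and ovary from female C57BL/6J mice staged for proestrus, and the libraries of a group come from different mice. WT mice were compared with Zeb1_200H mice (200H in what follows), heterozygous for a knock-in Zeb1 allele that carries point mutations in its predicted miR-200a/b sites, and with Zeb1_200M mice (200M), homozygous for it. WT mice carried no mutation, the allele is present in every cell of the mutants from fertilization on, and the cohorts were generated from a pair of ES cell clones, 3C5 and 6B6. Young mice were virgins of 8 to 12 weeks, and older mice were 28 to 36 weeks old and had been through a breeding trial. Young libraries were rRNA-depleted and read by strand, whereas older libraries were poly(A)-selected and unstranded, so levels were compared within a cohort only. Each group held 4 libraries, except for 3 in young WT pituitary, older 200M pituitary and older 200M hypothalamus. The WT columns of the young pituitary table are numbered 1, 2 and 3, whereas the sample titles of that group end in 1, 2 and 4, so the column numbered 3 was assigned to the group only and is called replicate u.

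Microtubules grow and shrink at their ends by the gain and loss of tubulin dimers, and neurons use this to extend, steer and stabilize axons and dendrites. Stathmins bind free tubulin and promote disassembly, microtubule-associated proteins bind the polymer and stabilize it, and GAP-43 and the collapsin response mediators link guidance signals to the cytoskeleton of the growth cone, the motile tip of an axon. In the pituitary, the posterior lobe holds axons whose cell bodies lie in the hypothalamus, and the hormone cells of the anterior lobe are excitable and share part of their gene expression with neurons. ZEB1 is a zinc finger repressor that binds E-boxes, and the miR-200 family represses Zeb1 by pairing with its 3′ UTR.

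The family has a pair of seeds that differ at a single base, and its mature forms (RefSeq) are shown with the seed, bases 2 to 8, in capitals because the mutant allele escapes these letters. The first pair shares a seed and so do the last 3.
mmu-miR-200a-3p: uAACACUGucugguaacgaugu
mmu-miR-141-3p: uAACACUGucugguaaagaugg
mmu-miR-200b-3p: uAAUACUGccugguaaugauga
mmu-miR-200c-3p: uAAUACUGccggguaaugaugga
mmu-miR-429-3p: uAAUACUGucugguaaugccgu

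The members' own 3′ UTRs (GENCODE M21, GRCm38) were searched for the complement of these seeds, since the family could also pair with them directly. The paper reports that the mature forms of the family were several-fold less abundant in the pituitary of both mutants than in WT. The part of that fall in the members' values was not tested. Matches were present in 3 of the 10 members, Dcx, Mapt and Tubb3, against 25.2% of the 21013 genes with an annotated 3′ UTR. Dcx, with a 3′ UTR of 7709 nt, held 2 matches to the seed of miR-200a, at chrX:143856210-143856216 and chrX:143855981-143855987. Mapt held 1 match to the seed of miR-200b at chr11:104331844-104331850, and Tubb3 held 1 at chr8:123421828-123421834. The matches are in capitals in the flanking sequence, given 5′ to 3′ on the transcript strand.
Dcx, first: tgatacaaaggCAGTGTTtc
Dcx, second: ctgtacatcttCAGTGTTca
Mapt: gttactattggCAGTATTgc
Tubb3: ttaaagtccttCAGTATTta
The remaining 7 members, among them Map2 with only 181 nt, Gap43 with 587 nt, Stmn2 with 1281 nt and Stmn4 with 632 nt of 3′ UTR, held no match in the transcript searched. Other transcripts of these genes were not searched.

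Promoter windows from 250 bases before to 50 bases after the transcript start (RefSeq, GRCm38.p6) covered 5 members, Dcx with 2 windows and Map1b, Map2, Stmn3 and Tubb3 with 1 each. The E-box letters CAGGTG and CAGGTA, searched on both strands, occurred in 0 of these 6 windows and in 29.5% of all 32851 windows. The letters CAGCACC and GGACAGC, from the arms of the RE1 element through which the repressor REST silences neuronal genes in other cells, occur in 7.1% and 6.6% of all windows. Map1b and Tubb3 held CAGCACC, Map2 and Tubb3 held GGACAGC, and the windows of Dcx and Stmn3 held neither. The Map2 window, chr1:66175079-66175378, and the Tubb3 window, chr8:123411303-123411602, both on the plus strand of GRCm38, are shown as the windows that held GGACAGC. Matches are in capitals (as their reverse complements, GCTGTCC and GGTGCTG).
Map2: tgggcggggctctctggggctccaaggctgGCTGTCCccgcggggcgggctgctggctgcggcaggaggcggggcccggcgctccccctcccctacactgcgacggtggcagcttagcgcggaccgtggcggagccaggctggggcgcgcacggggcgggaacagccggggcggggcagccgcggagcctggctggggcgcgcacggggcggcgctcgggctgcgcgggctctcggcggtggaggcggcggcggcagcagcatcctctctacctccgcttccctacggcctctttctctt
Tubb3: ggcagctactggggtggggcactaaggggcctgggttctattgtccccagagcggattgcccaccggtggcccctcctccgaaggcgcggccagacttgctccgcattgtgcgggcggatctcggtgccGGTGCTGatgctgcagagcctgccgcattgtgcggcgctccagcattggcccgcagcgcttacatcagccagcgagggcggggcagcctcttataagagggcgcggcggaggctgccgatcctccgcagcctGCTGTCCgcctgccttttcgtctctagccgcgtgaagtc
A match of letters is a description of the window and not a binding site.

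Libraries held 3321845 to 14655095 gene counts, the fewest in young hypothalamus (3321845 to 5143128), with 4527753 to 13342430 in pituitary. Levels are given in CPM, counts scaled to 1000000 per library with TMM factors. Zeb1 was higher in the mutant pituitaries of both cohorts, at 93.9 to 98.5 CPM in young WT, 127 to 136 in 200H and 133 to 145 in 200M, and at 54.9 to 62.0, 70.2 to 76.1 and 79.6 to 91.6 CPM in older mice, in the same order. The 200M rise was 1.44-fold in young and 1.46-fold in older mice (adjusted p = 2.39e-05 and 0.000833, edgeR). Every pituitary library was rich in hormone genes and every hypothalamus library in neuronal genes. In the older pituitary, 200H replicate 1 stood apart with little posterior and intermediate lobe signal. Its summed Avp and Oxt reached 0.465 CPM (other 200H libraries up to 11), its pituicyte and astrocyte markers 85.4 CPM (up to 178), and its melanotrope markers 265 CPM (up to 668).

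WT levels placed most of these genes far higher in the hypothalamus than in the pituitary. All 10 members were higher in WT hypothalamus in both cohorts, where 35.4% of all genes tested were higher in young and 39.2% in older mice (edgeR quasi-likelihood F test, Benjamini-Hochberg adjusted p under 0.05; each call below uses this rule). The differences differed widely between members. Map1b, which binds microtubules in growing axons, was only 2.21-fold higher in young and 2.22-fold higher in older hypothalamus, and Stmn3 was 4.14-fold and 5.98-fold higher. Stmn2, a membrane-anchored stathmin of growth cones, was higher by log2 differences of 7.14 (SE 0.12) and 7.91 (SE 0.14), and Gap43 by 6.83 (SE 0.17) and 8.89 (SE 0.16). In bulk RNA a tissue with fewer cells of a type cannot be told apart from one with less RNA per cell.

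Levels between genes were compared per kb of exon. In young WT pituitary Map1b led with 103 ± 12.3 CPM per kb (SD, n = 3), followed by Map2 with 23.8 ± 0.943 and Stmn3 with 17.4 ± 2.95, and the libraries of these neighbours did not overlap. Mapt (4.35 ± 0.508) and Tubb3 (3.81 ± 0.660) overlapped, and Gap43 (0.645 ± 0.151) and Stmn2 (0.284 ± 0.0671) were the lowest members with any reads. Stmn4 had 0 reads in each of the 3 young WT pituitaries. In older WT pituitary Stmn3 led with 74.0 ± 11.8 CPM per kb (SD, n = 4), ahead of Map1b with 34.9 ± 5.76, and Stmn4 was again last with 0.117 ± 0.0893. The hypothalamus order was led by Map1b (218 ± 6.38) and Map2 (135 ± 3.21) in young mice and by Stmn3 (483 ± 35.4) and Gap43 (389 ± 38.3) in older mice, with Dcx last in both. Since the cohorts differ in RNA selection, age and breeding, these cannot be told apart as sources of the change of order.

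The ovary carried little of most members. In young WT ovary 5 of 9 tested members were lower than in WT pituitary, where 32.7% of all genes were, namely Stmn3, Map2, Mapt, Map1b and Dcx, with Stmn3 60.6-fold and Map2 13.6-fold lower. Dpysl3 was the member that went the other way, 11.3-fold higher in ovary (35.6% of all genes were higher there), at 226 ± 12.8 CPM (SD, n = 4). Map1b also stayed abundant, at 979.9 ± 79.1 CPM (SD, n = 4). Stmn2, Gap43 and Tubb3 did not pass the test, with log2 differences of -0.83, -0.76 and -0.31.

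**Figure D1:**
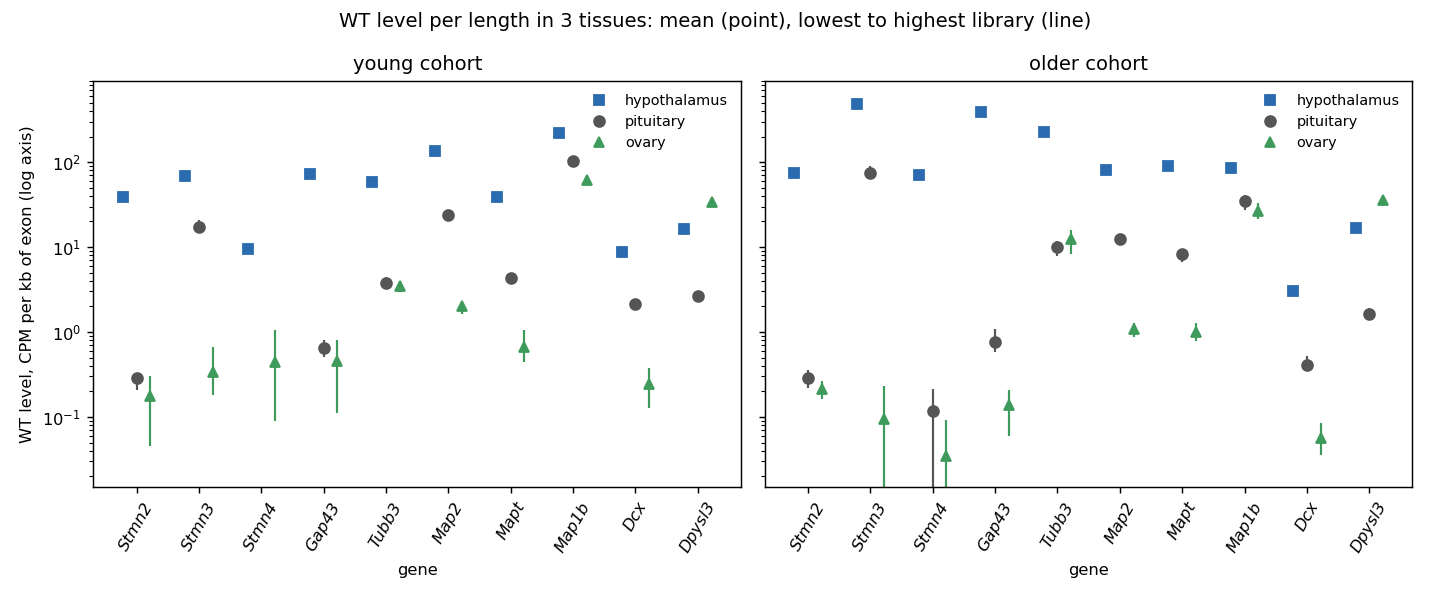
Level of each member in WT libraries in CPM per kb of exon (log axis) for pituitary, hypothalamus and ovary in each cohort, with points for the mean and bars from the lowest to the highest library. A lowest library at 0 is drawn to the foot of the axis, and Stmn4 in young WT pituitary, at 0 in 3 libraries, has no point. Hypothalamus means lie above pituitary means for all 10 members, and Dpysl3 has ovary means above both other tissues. Each tissue was scaled by itself, and older ovary was counted with another tool and annotation than older pituitary and hypothalamus.

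In the pituitary of mutant mice most of these genes were higher than in WT. In young 200M mice 7 of 10 members rose, against 11.5% of all genes tested, and in older 200M mice 9 of 10 rose, against 11.7%; 0 fell in either cohort. The median log2 fold change over the members was 1.01 in young and 1.06 in older mice, where the median over all genes was 0.00 and -0.01. The young value is the same with Stmn4 at its ratio to a floor of 3 counts in WT, given below. The 200H pituitaries shared their WT libraries with these comparisons. In them 5 of 9 tested members rose in young mice (6.56% of all genes) and 7 of 10 in older mice (7.09%), with member medians of 0.71 and 0.91 beside 0.01 and -0.01 over all genes. Every mutant library lay above every WT library for 7 of 10 members in young 200M (15.4% of all genes tested), 6 of 9 in young 200H (12.9%), 9 of 10 in older 200M (15.6%) and 7 of 10 in older 200H (9.19%). Some members passed the filter on low counts only through their mutant libraries and so had to differ once kept: Gap43 in all 4 comparisons with WT, Stmn4 in the 3 in which it was tested, and Stmn2 in older 200M.

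**Figure D2:**
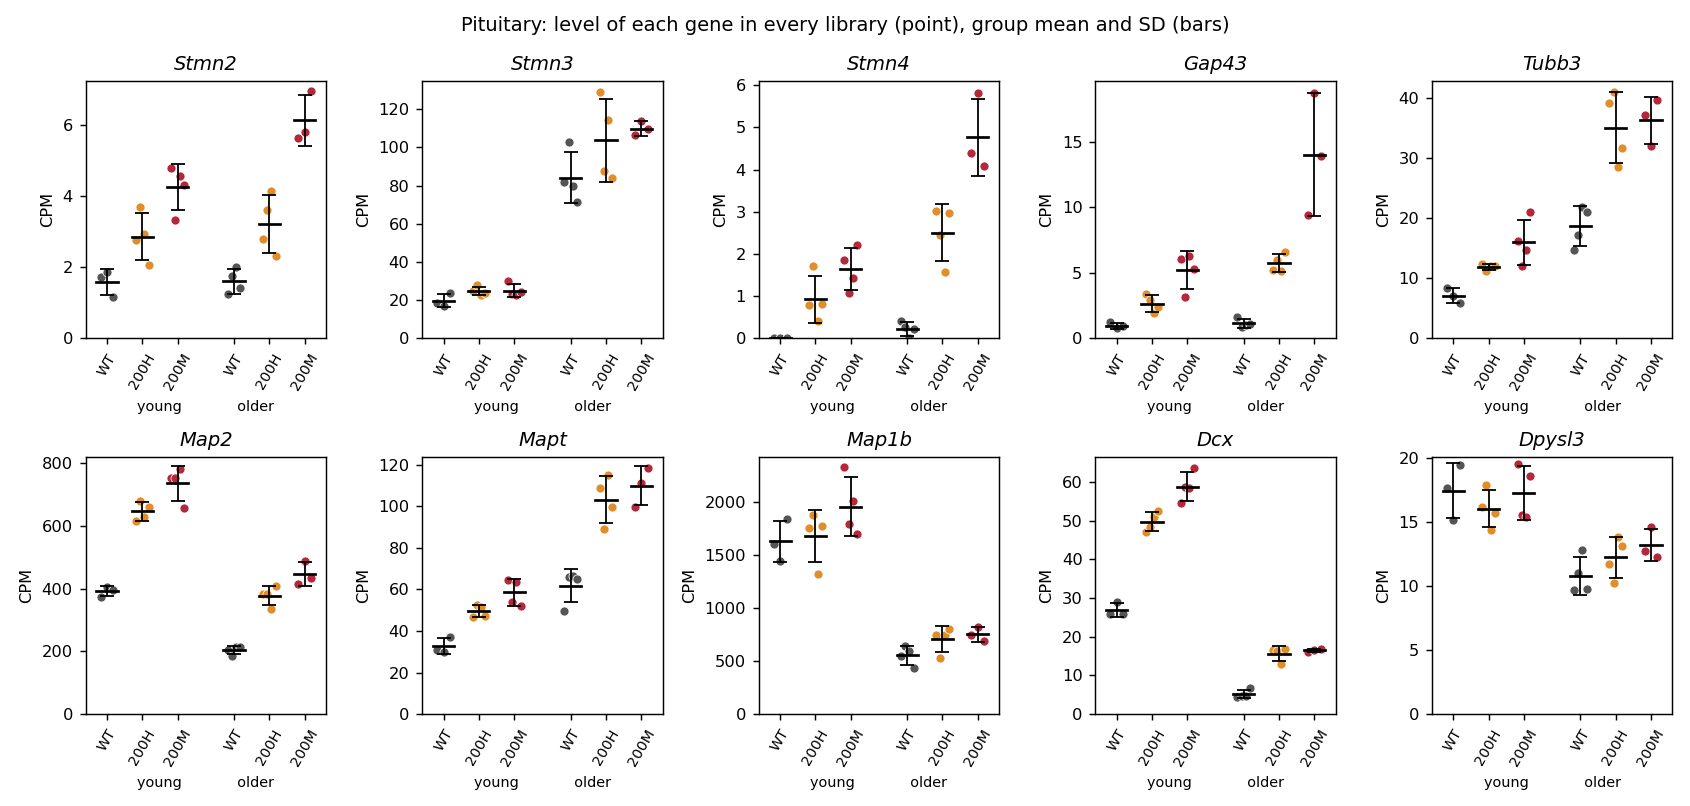
CPM of each member in every pituitary library for WT, 200H and 200M mice of the young and older cohorts, with a point per library, a line at the group mean and bars of 1 SD (n = 3 or 4). Stmn2, Stmn4, Gap43, Tubb3, Map2, Mapt and Dcx have every mutant library above every WT library in both cohorts, whereas the Dpysl3 groups overlap.

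Neuronal tubulin and 2 of the microtubule-associated proteins, Map2 and Mapt, rose in both cohorts. Tubb3, the class III β-tubulin of neuronal microtubules (chr8:123411424-123422015, plus strand), was 8.38, 7.04 and 5.92 CPM in the young WT libraries, 12.3, 11.2, 12.0 and 12.0 in 200H and 16.2, 12.0, 14.7 and 21.0 in 200M. The older values were 14.8, 17.2, 21.8 and 21.0 CPM in WT, 39.1, 41.0, 28.5 and 31.6 in 200H and 37.2, 32.0 and 39.7 in 200M. No mutant library of either cohort overlapped WT, and the 200H and 200M libraries overlapped each other. Tubb3 rose 2.21-fold in young 200M (log2 fold change 1.15, SE 0.20, adjusted p = 0.000734) and 1.96-fold in older 200M (log2 fold change 0.97, SE 0.15, adjusted p = 0.000627), and 1.66-fold and 1.90-fold in young and older 200H (adjusted p = 0.00758 and 0.00169, edgeR).

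Map2, which bundles and spaces microtubules mainly in dendrites, rose in both mutants of each cohort. Its young values were 375, 405 and 394 CPM in WT, 616, 679, 628 and 659.7 in 200H and 753, 752, 780.4 and 655 in 200M. Its older values were 206, 186, 213 and 214 CPM in WT, 384, 384, 336 and 407 in 200H and 416, 489 and 434 in 200M. WT stood clear of both mutants in each cohort, and in older mice 200M also stood clear of 200H. Map2 rose 1.87-fold in young 200M (log2 fold change 0.90, SE 0.06, adjusted p = 9.67e-08), 1.64-fold in young 200H (log2 fold change 0.71, SE 0.07, adjusted p = 2.15e-05), 2.20-fold in older 200M (log2 fold change 1.14, SE 0.09, adjusted p = 3.71e-06) and 1.85-fold in older 200H (log2 fold change 0.89, SE 0.09, adjusted p = 4.59e-05). An antisense gene, Gm10558, shares 124 exon bases with Map2 (chr1:66175273-66442583, plus strand), and in the unstranded older libraries reads there cannot be assigned to either gene.

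Mapt, which encodes tau, the main microtubule-associated protein of axons (chr11:104231390-104332090, plus strand), was 31.1, 30.0 and 37.1 CPM in young WT, 46.6, 52.5, 51.3 and 47.3 in 200H and 64.7, 53.8, 63.6 and 51.9 in 200M. In older mice it was 49.8, 65.8, 66.2 and 65.1 CPM in WT, 109, 88.8, 115 and 99.9 in 200H and 99.8, 111 and 118 in 200M. Again no mutant library reached down to WT. The rise was 1.78-fold in young 200M (log2 fold change 0.83, SE 0.10, adjusted p = 2.99e-05), 1.80-fold in older 200M (log2 fold change 0.85, SE 0.10, adjusted p = 0.000162), 1.5-fold in young 200H (adjusted p = 0.0017, edgeR) and 1.67-fold in older 200H (adjusted p = 0.000877, edgeR).

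Map1b, the microtubule-associated protein of growing axons (chr13:99421446-99516540, minus strand), passed the test in 1 of the 4 comparisons with WT. It was 1605, 1448 and 1836 CPM in young WT, 1757, 1875, 1323 and 1775 in 200H and 2333, 1792, 2007 and 1699.9 in 200M, with overlap between all groups. In older mice WT had 544, 644, 594 and 431 CPM, 200H had 751, 529, 746 and 804 and 200M had 742, 823 and 691, so that the 200M libraries lay above WT while 200H replicate 2 fell among them. Map1b rose 1.37-fold in older 200M (log2 fold change 0.45, SE 0.12, adjusted p = 0.0174) and did not pass the test in young 200M (log2 fold change 0.26, SE 0.09, adjusted p = 0.0586) or older 200H (log2 fold change 0.36, SE 0.14, adjusted p = 0.129). The older 200M call was lost without 200M replicate 1 (adjusted p = 0.0576) or 2 (0.0857) and, after removal of a trend of fold change with gene length, with an adjusted p of 0.140 (log2 difference 0.29). In young 200M a call was gained with DESeq2 (0.0451), without the low-count filter (4.04e-06), and without WT replicate u (0.0181) or 200M replicate 4 (0.0279), and in older 200H without the filter (0.00919) or 200H replicate 2 (0.0292), all by edgeR except the first.

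Dcx, or doublecortin, which binds microtubules in migrating and newly formed neurons (chrX:143855842-143933311, minus strand), separated WT from both mutants in each cohort. In young mice it was 25.8, 28.9 and 25.9 CPM in WT, 47.0, 48.4, 51.0 and 52.6 in 200H and 54.5, 58.8, 58.3 and 63.5 in 200M, with no overlap between any of the 3 genotypes. Older values were 4.55, 4.82, 4.80 and 6.67 CPM in WT, 16.5, 16.4, 12.9 and 16.9 in 200H and 16.1, 16.5 and 16.8 in 200M. Both older mutants stood clear of WT and overlapped each other. Dcx rose 2.18-fold in young 200M (log2 fold change 1.12, SE 0.09, adjusted p = 8.22e-07), 1.84-fold in young 200H (log2 fold change 0.88, SE 0.09, adjusted p = 5.93e-05), 3.16-fold in older 200M (log2 fold change 1.66, SE 0.17, adjusted p = 3.51e-05) and 3.01-fold in older 200H (log2 fold change 1.59, SE 0.16, adjusted p = 5.18e-05).

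Among the tubulin-binding stathmins, Stmn2 and Stmn4 rose from very low WT levels. Stmn2 (chr3:8509360-8561606, plus strand) was 1.74, 1.87 and 1.16 CPM in young WT, 2.78, 3.69, 2.94 and 2.07 in 200H and 4.81, 3.33, 4.57 and 4.32 in 200M. In older mice it was 1.24, 1.75, 2.00 and 1.42 CPM in WT, 2.79, 3.63, 4.16 and 2.33 in 200H and 5.65, 5.81 and 6.95 in 200M. Every mutant library exceeded every WT library of its cohort, on 45 to 198 reads a group in young mice and 52 to 106 in older mice. Stmn2 rose 2.66-fold in young 200M (log2 fold change 1.41, SE 0.27, adjusted p = 0.00165) and 3.86-fold in older 200M (log2 fold change 1.95, SE 0.24, adjusted p = 0.000155). The older 200M call was favoured by the low-count filter, which Stmn2 passed there only through mutant libraries. In young 200H it did not pass the test (log2 fold change 0.84, SE 0.31, adjusted p = 0.101). In older 200H it did (log2 fold change 0.99, SE 0.27, adjusted p = 0.0288), but the call was lost without WT replicate 1, 2 or 4 or 200H replicate 2 or 3 (adjusted p = 0.0728, 0.0669, 0.0622, 0.0762 and 0.0742, edgeR).

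Stmn4 (chr14:66344296-66361680, plus strand) was 0 in all 3 young WT libraries, 0.782, 1.72, 0.405 and 0.828 CPM in 200H and 1.86, 1.08, 1.42 and 2.22 in 200M, from 41 and 74 reads over the 4 libraries of each mutant. A floor of 3 counts over the WT group corresponds to 0.106 CPM. The group mean of Stmn4 was 15.6 times this floor in young 200M (adjusted p against WT = 0.000208, edgeR) and 8.81 times in young 200H. The floor covers counting error in WT only, and these ratios leave out the spread between mutant libraries. The low-count filter removed it from the young 200H test, and without the filter or with all 3 genotypes in 1 fit its adjusted p was 5.38e-05 and 0.00234 (edgeR). In older mice Stmn4 was 0.414, 0.263, 0 and 0.219 CPM in WT, on 8 reads in all, 3.02, 2.45, 1.58 and 2.97 in 200H and 4.39, 5.81 and 4.09 in 200M. It rose 18.9-fold in older 200M (log2 fold change 4.24, SE 0.40, adjusted p = 1.91e-05) and 10.1-fold in older 200H (log2 fold change 3.34, SE 0.42, adjusted p = 0.00028), with no overlap between any of the genotypes. Wherever it was tested against WT, Stmn4 passed the low-count filter only through its mutant libraries, which favours a call once kept.

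Stmn3 (chr2:181306459-181314500, minus strand), the stathmin of highest level per kb in WT pituitary, overlapped between genotypes in young mice. Young libraries ranged over 17.2 to 23.6 CPM in WT, 22.7 to 27.9 in 200H and 22.6 to 30.2 in 200M. Older libraries ranged over 71.5 to 103 CPM in WT, 83.9 to 129 in 200H and 106 to 114 in 200M, the last above all WT libraries. The gene passed the test in older 200M (log2 fold change 0.40, SE 0.11, adjusted p = 0.0199), and that call was lost without each 200M library in turn (adjusted p = 0.0564, 0.0769 and 0.0713, edgeR) and with all 3 genotypes in 1 fit (0.0589). In young 200M (log2 fold change 0.33, SE 0.13, adjusted p = 0.0953) a call was gained without WT replicate u (adjusted p = 0.0334) or the low-count filter (0.0305), and in older 200H (log2 fold change 0.30, SE 0.14, adjusted p = 0.204) after removal of the length trend (0.0403).

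Gap43, a substrate of protein kinase C on the inner face of the growth cone membrane, was the member with the next largest fold change after Stmn4 in each comparison with WT in which both were tested. Its young values were 1.23, 0.770 and 0.952 CPM in WT, 3.39, 2.92, 1.92 and 2.38 in 200H and 6.05, 3.16, 6.30 and 5.31 in 200M. In older mice WT had 1.66, 0.876, 1.00 and 1.09 CPM, 200H had 5.23, 5.97, 5.15 and 6.57 and 200M had 9.42, 18.7 and 13.9. The genotypes were fully separated in older mice, and in young mice both mutants stood clear of WT. Gap43 rose 5.21-fold in young 200M (log2 fold change 2.38, SE 0.33, adjusted p = 0.000101) and 12.5-fold in older 200M (log2 fold change 3.64, SE 0.29, adjusted p = 4.82e-06), on 28 and 37 reads in the WT groups. In 200H it rose 2.67-fold in young (log2 fold change 1.41, SE 0.34, adjusted p = 0.0169) and 5.04-fold in older mice (log2 fold change 2.33, SE 0.24, adjusted p = 5.32e-05). The young 200H call was lost without WT replicate 2 or u or 200H replicate 1 (adjusted p = 0.0644, 0.0692 and 0.0502, edgeR). In every comparison with WT, Gap43 passed the low-count filter only through its mutant libraries, which favours a call once kept. The gene lies at chr16:42248442-42340651 on the minus strand.

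Dpysl3, which encodes the collapsin response mediator CRMP4, was the member that did not pass the test in any pituitary comparison. It ranged over 15.2 to 19.5 CPM in young WT, 14.4 to 17.9 in 200H and 15.4 to 19.6 in 200M, and over 9.66 to 12.8, 10.2 to 13.9 and 12.3 to 14.6 CPM in older mice. All its groups overlapped. Its log2 fold changes were -0.02 (SE 0.13) and -0.13 (SE 0.13) in young 200M and 200H, and 0.32 (SE 0.15) and 0.19 (SE 0.15) in older 200M and 200H.

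Homozygotes were also compared with heterozygotes. In young mice 0 of 10 members passed the test (edgeR), where 0.0383% of all genes did. An unadjusted p under 0.05 was found for 6, beside 1081 of 18271 genes. All 10 log2 differences were above 0, from 0.01 for Stmn3 to 0.96 for Gap43, with Stmn2 at 0.56, Stmn4 at 0.77 and Dcx at 0.24. In older mice Gap43 rose 2.46-fold from 200H to 200M (log2 fold change 1.30, SE 0.22, adjusted p = 0.0457), against 0.0942% of all genes. That call was kept without 200H replicate 2 and lost without any other library (adjusted p = 0.0515 to 0.270). Stmn2 (0.95, adjusted p = 0.151) and Stmn4 (0.90, 0.192) did not pass, although their 200M libraries lay above all 200H libraries, as did those of Gap43 and Map2, 4 of 10 members beside 5.56% of all genes. Tubb3, Dcx, Mapt, Map1b and Stmn3 had older log2 differences of 0.04 (SE 0.14), 0.06 (SE 0.13), 0.10 (SE 0.10), 0.09 (SE 0.12) and 0.09 (SE 0.13).

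The hypothalamus gives a scale for these levels. Relative to the mean of WT hypothalamus in the same cohort, Dcx was 24.4% ± 1.76 (SD, n = 3) in young WT pituitary, 44.9% ± 1.99 in 200H and 53.4% ± 3.59 in 200M (n = 4 each). In older mice the Dcx share was 14.2% ± 2.62 in WT, 42.9% ± 5.53 in 200H and 44.9% ± 0.868 in 200M. These shares do not overlap between WT and mutants. Map2 went from 17.5% ± 0.841 to 32.9% ± 2.25 in young and from 16.1% ± 0.983 to 35.3% ± 2.54 in older 200M mice. Gap43 stayed a small share, at 0.889% ± 0.200 in young WT and 4.71% ± 1.27 in young 200M, and at 0.206% ± 0.0638 and 2.48% ± 0.794 in older mice. Stmn2 likewise went from 0.731% ± 0.172 to 1.96% ± 0.295 and from 0.404% ± 0.0814 to 1.55% ± 0.184. Stmn2, Stmn4 and Gap43 therefore had group means of 8.94% or less of the hypothalamus level in every genotype.

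**Figure D3:**
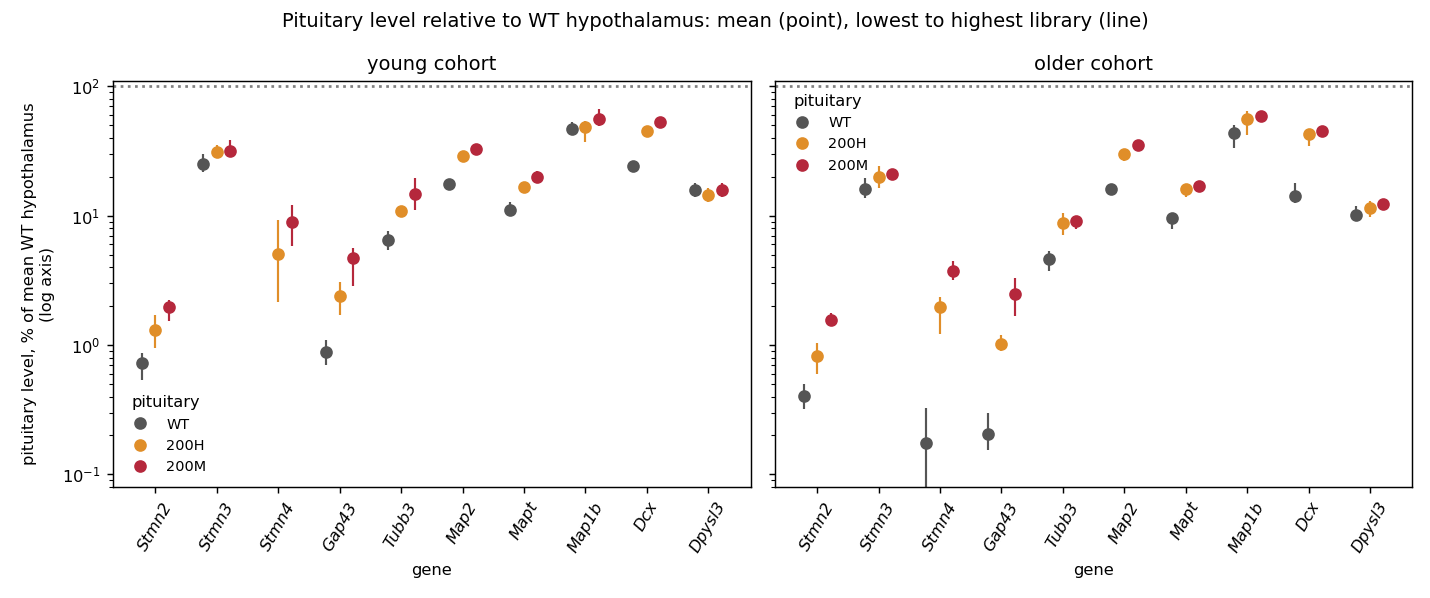
Pituitary level of each member as a percent of its mean in WT hypothalamus of the same cohort (log axis) for WT, 200H and 200M, with points for means, bars from the lowest to the highest library and a dotted line at the hypothalamus level. A library at 0 is drawn to the foot of the axis and Stmn4 in young WT, at 0, has no point. In older mice Gap43 moves from 0.206% to 2.48% and Dcx from 14.2% to 44.9% between WT and 200M.

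Markers of other cell types moved in the same libraries. The summed CPM of 8 neuronal markers that are no members (Snap25, Syt1, Rbfox3, Elavl3, Elavl4, Syn1, Nefl and Nefm) was 1046 to 1141 in young WT, 1144 to 1296 in 200H and 1252 to 1388 in 200M, and 628 to 700.0 in older WT, 724 to 843 in 200H and 892 to 996 in 200M. Of these 8, 4 rose in young and 6 in older 200M. Pituicyte and astrocyte markers went from 235 to 240.5 CPM in young WT to 290.0 to 332 in 200M and from 129 to 152 in older WT to 172 to 220.4 in 200M, with 3 of 7 raised in each cohort. The magnocellular transcripts Avp and Oxt, which would report hypothalamic axons or tissue, summed to 0.880 to 3.17 CPM in young WT, 1.14 to 3.65 in 200H and 0.864 to 2.41 in 200M. In older mice they summed to 3.6 to 6.76, 0.465 to 11 and 9 to 11.9 CPM, so that every 200M sum lay above WT. Oxt rose in older 200M (log2 fold change 1.25, adjusted p = 0.00494, edgeR) and did not pass in young 200M (-0.19). Melanotrope markers were 563 to 720.4 CPM in young WT and 548 to 760.3 in young 200M, and 517 to 822 in older WT and 632 to 1199 in older 200M. Among them Pax7 (log2 fold change 0.60), Pcsk2 (0.84) and Oacyl (0.79) rose in older 200M and Drd2 (-0.28) did not pass. In young 200M Drd2 fell (-0.50) and the others did not pass. The 10 hormone-cell markers were lower in sum, from 161224 to 184771 CPM in young WT to 66263 to 88804 in 200M and from 287347 to 330622 in older WT to 163905 to 208772 in 200M. Of these 10, 4 fell and 0 rose in young and 3 fell and 1 rose in older 200M, with prolactin (Prl) at log2 fold changes of -1.61 and -1.66, Gh at 0.10 and 0.00, and Pomc at 0.01 and 1.02. The 4 fibroblast markers were also lower in sum, from 518 to 637 CPM in young WT to 272 to 375 in 200M and from 635 to 991 in older WT to 390.3 to 506 in 200M, although among them Col1a2 fell (-1.68 and -1.24) and Dcn rose (0.64 and 0.91) in both cohorts and Col1a1 and Lum passed in neither. Oligodendrocyte markers summed to 75.7 to 83.9 CPM in young WT and 46.5 to 54.6 in 200M, and to 72.6 to 104 and 58.8 to 74.2 CPM in older mice, with 1 of 3 tested lowered in each cohort. Mitochondrial transcripts made up 5.11 to 5.31% of counts in young WT, 6.09 to 6.81% in 200H and 6.08 to 7.18% in 200M, and 0.808 to 1.21%, 1.30 to 1.36% and 1.33 to 1.38% in older mice, so that every mutant pituitary lay above WT. The lists named here had no marker at 0 in every library of a WT or 200M group. The part of these shifts, and of the mitochondrial share, in the members' values was not tested. A single library, older 200H replicate 1, had low posterior lobe markers. It held 5.23 CPM of Gap43, 16.5 of Dcx, 384 of Map2 and 3.02 of Stmn4, and the part of posterior lobe content in the members' values was not tested.

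In the hypothalamus, where the same genes are expressed at far higher levels, no member passed the edgeR test with the low-count filter. In young mice 0 of 10 were called in 200M or 200H (0.02% and 0.0202% of all genes, edgeR). In either, 0 had an unadjusted p under 0.05, beside 847 of 14988 and 585 of 14877 genes. Log2 fold changes ran from -0.01 to 0.12 in 200M and from -0.13 to 0.07 in 200H. Gap43 was 95.3 to 125 CPM in WT, 104 to 133 in 200H and 96.1 to 130.2 in 200M, Dcx was 106 to 113, 96.7 to 125 and 98.3 to 120.2, and Map2 was 2166 to 2273, 2213 to 2357 and 2122 to 2363. All groups of these genes overlapped. Young 200M replicate 1 had fewer oligodendrocyte transcripts (1551 CPM in sum, against 2216 to 3178 in the other young libraries), and without it 0 members were called in young 200M.

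Older 200H hypothalamus gave 0 calls as well (0% of all genes), with log2 fold changes from -0.08 to 0.11. There 0 of 10 had an unadjusted p under 0.05, beside 445 of 15910 genes. Older 200M hypothalamus gave 0 of 10 (0.00622% of all genes, edgeR). This result depends on the method, since DESeq2 and the fit without the low-count filter each called some members there. The paper, which used DESeq2, also reports more changed genes in that group than edgeR called here. In the edgeR test 5 members had an unadjusted p under 0.05, beside 2904 of 16067 genes, and the members fell into a pattern by length. The members with short gene models, Stmn3, Gap43, Tubb3 and Stmn4 (1136 to 1916 nt of exon), had log2 fold changes of 0.25, 0.14, 0.15 and 0.27, and Stmn2 (5602 nt) had 0.17. The long Map1b (-0.52, adjusted p = 0.105), Map2 (-0.36, adjusted p = 0.112) and Dcx (-0.27), of 12647 to 16449 nt, had values below 0 (edgeR), as had Dpysl3 (-0.13) and Mapt (-0.09). Map1b was 1192, 1269, 1453 and 1446 CPM in WT and 1083, 757 and 949 in 200M, and Map2 was 1306, 1356, 1283 and 1382 and 1168, 891 and 1029. The same trend was present over all genes, whose median log2 fold change was 0.229 in the bin of the shortest gene models (n = 582) and -0.163 in that of the longest (n = 2703). With the trend removed, a step chosen after the data were seen, Map1b was at -0.29, Map2 at -0.13, Stmn3 at 0.05 and Tubb3 at 0.00. Dropping 200M replicate 1 brought Map1b (-0.64, adjusted p = 0.0428) and Map2 (-0.46, adjusted p = 0.0457) past the threshold, and dropping WT replicate 1 brought Map1b past it (-0.58, adjusted p = 0.0362). In the pituitary the long Map2 and Dcx and the short Gap43 and Tubb3 all rose, and removal of the length trend left 7 calls in young and 8 in older 200M.

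**Figure D4:**
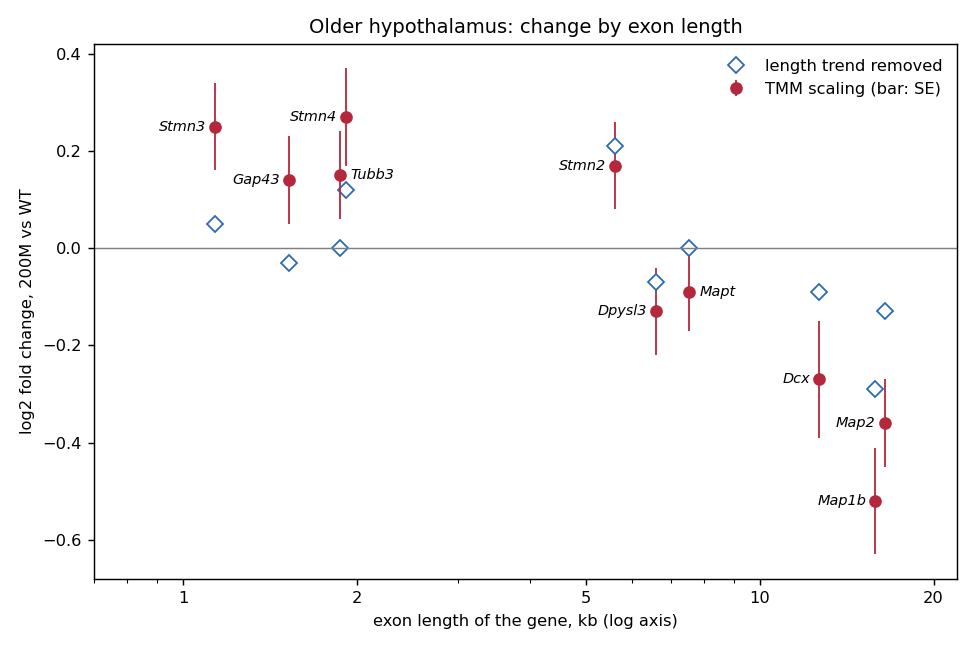
Log2 fold change of 200M against WT in older hypothalamus (filled points, bars of 1 SE) against exon length of the gene in kb (log axis) for the 10 members, with the values after removal of the length trend as open diamonds. The filled points run from 0.27 for Stmn4 to -0.52 for Map1b, and the diamonds lie between 0.21 and -0.29.

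In the ovary no member passed the test as raised. Of 10 members, 7 were tested in young 200M and 8 in young 200H with 0 called (2.58% and 0.0051% of all genes, edgeR). An unadjusted p under 0.05 was found for 2 and 1 of them, beside 3114 of 19250 and 1384 of 19621 genes. In older 200M ovary 6 were tested and 1, Map1b, fell, against 1.19% of all genes. Map1b was 427, 516, 342 and 396 CPM in WT, 465, 326, 312 and 387 in 200H and 237, 241, 276 and 255 in 200M. The fall was 1.65-fold (log2 fold change -0.73, SE 0.14, adjusted p = 0.0297). It was lost without WT replicate 2, 3 or 4 or 200M replicate 1, 2 or 4 (adjusted p = 0.0513 to 0.0974) and after removal of the length trend (-0.58, adjusted p = 0.0727). Dpysl3 (-0.58, adjusted p = 0.111) and Tubb3 (-1.10, 0.107) had values below 0 and Mapt had a value above 0 (0.78, 0.231), without passing the test. Dpysl3, at 220.5, 248, 265 and 216 CPM in WT, was 182, 142, 120.3 and 185 in 200M. The summed markers of ovarian cells were lower in the same libraries, at 3594 to 8532 CPM in older 200M and 9140.5 to 21165 in older WT, and their part was not tested. Older 200H ovary gave 0 calls (0% of all genes), and 2 of 6 had an unadjusted p under 0.05, beside 1160 of 17605 genes.

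Whether the 200M effect differed between tissues was tested as an interaction within a cohort, with the same pituitary libraries set against hypothalamus and ovary. The labels do not say whether libraries of different tissues share a mouse, and the fit treated them as independent. Against the hypothalamus, the pituitary effect was larger for 7 of 10 members in young mice (6.64% of all genes) and 9 of 10 in older mice (10.4%), all but Stmn3, Map1b and Dpysl3 in young and all but Stmn3 in older mice. For Gap43 the difference of log2 fold changes was 2.29 (SE 0.31, adjusted p = 7.38e-06) in young and 3.53 (SE 0.29, adjusted p = 2.25e-07) in older mice. For Dcx it was 1.12 (SE 0.12, adjusted p = 4.2e-07) and 1.93 (SE 0.20, adjusted p = 4.33e-06). Map1b, with a rise in older pituitary and a value below 0 in older hypothalamus, differed by 0.98 (SE 0.18, adjusted p = 0.00114). After removal of the length trend the older differences were 0.62 for Map1b (adjusted p = 0.0227) and 1.14 for Map2. Stmn3 then passed the test (0.41, adjusted p = 0.0463, edgeR). The older Dpysl3 difference, 0.46 with adjusted p = 0.0487, was lost without WT pituitary replicate 1, 2 or 4, each 200M pituitary library, WT hypothalamus replicate 1, 2 or 4, or 200M hypothalamus replicate 2 or 3 (adjusted p = 0.0627 to 0.169). It was also lost without the low-count filter (0.119), with a replicate block (0.15) and after removal of the length trend (0.113), all by edgeR.

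Against the ovary, the difference passed the test for Stmn4, Gap43, Tubb3 and Map2 in young mice, 4 of 10 members beside 5.68% of all genes. In older mice it passed for Stmn2, Gap43, Tubb3, Map2, Map1b and Dpysl3, 6 of 10 beside 3.29%, with ovary counted by another tool and annotation than pituitary. Tubb3 had differences of 1.58 (SE 0.28) in young and 2.10 (SE 0.38) in older mice. Stmn4 and Gap43 are low in ovary, and their differences had an SE of 1.53 (Stmn4, young) and 0.70 (Gap43, older). Both are also low in WT pituitary, so they met the low-count filter mainly through 200M pituitary, which favours a difference once kept. Their calls are part of the counts of 4 and 6. The older Gap43 difference was lost without pituitary WT replicate 2 or 200M replicate 2 or 3 or ovary WT replicate 1 or 2 (adjusted p = 0.0508 to 0.0887), and the young difference without ovary WT replicate 4 (0.0570). The older Dpysl3 difference (0.92, adjusted p = 0.0299) was lost without pituitary WT replicate 1, 2 or 4, any pituitary 200M library, or ovary WT replicate 2 or 3 (adjusted p = 0.0540 to 0.0982). Without the low-count filter the young difference also passed for Mapt (adjusted p = 0.00179) and Dcx (0.00369, edgeR), which makes 6 of 10. Fitted differences of Stmn4 in young mice depend on the prior count, since WT pituitary was at 0.

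**Figure D5:**
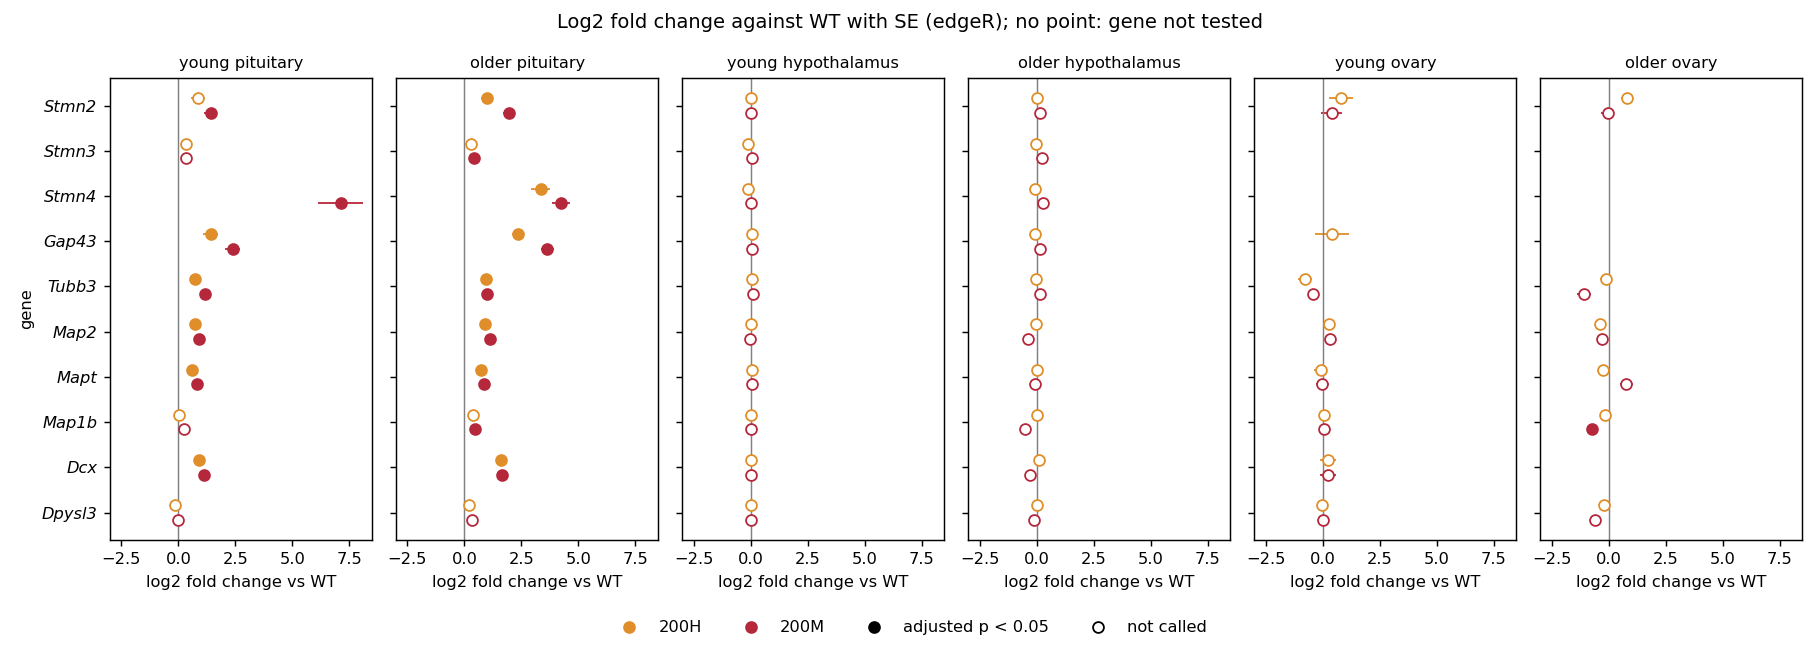
Log2 fold change of 200H (orange) and 200M (red) against WT for each member in pituitary, hypothalamus and ovary of young and older mice, with bars of 1 SE, filled points for calls and no point where a gene was not tested. For 200M, pituitary values lie above hypothalamus values in both cohorts for all members except Dpysl3 in young mice, and the axis value of young Stmn4, 7.12, is a fitted value against a WT group at 0.

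The size of the pituitary effect was not shown to differ between cohorts. In the test of older against young 200M effects 0 of 10 members passed (0.0273% of all genes, edgeR). An unadjusted p under 0.05 was found for 2, Gap43 and Dcx, beside 1257 of 18344 genes. Gap43 differed by 1.21 (SE 0.51) and Dcx by 0.48 (SE 0.17) on the log2 scale, with the larger effect in older mice, whereas Map2 (0.18, SE 0.11), Mapt (-0.04, SE 0.15) and Stmn3 (0.01, SE 0.18) had differences closer to 0. Age, breeding history, RNA selection and read counting all change with the cohort and cannot be told apart.

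Other genes of the same cytoskeleton were read from lists of relatives, beside shares over all genes of 11.5% raised and 10% lowered in young and 11.7% raised and 9.77% lowered in older 200M pituitary. Of 15 growth cone membrane and adhesion genes, 8 rose in young and 9 in older 200M pituitary, 8 of them in both, and 0 fell. Basp1, a membrane protein with growth cone functions like those of GAP-43, rose by 1.31 (SE 0.08) and 1.22 (SE 0.18) on the log2 scale in young and older mice, the contactin Cntn1 by 0.94 and 0.96, and the adhesion molecule Ncam1 by 0.68 and 0.73. Of 21 other microtubule-binding proteins, 8 rose and 3 fell in young and 7 rose and 2 fell in older 200M, among them Map1a, a relative of Map1b, at 0.70 and 1.04, and Tppp, which promotes tubulin polymerization, at 1.37 and 1.14, while the microtubule-binding Map7 fell by 0.60 and 0.47. The other falls were Camsap3 in both cohorts (-0.56 and -0.84) and the doublecortin-like kinase Dclk1 in young mice (-0.68). In older mice Dclk1 was at -0.29 and did not pass. Among 15 growth cone actin genes 5 rose and 1 fell in young and 6 rose and 2 fell in older mice, with Enah at 0.65 and 0.41 and Shtn1 at -0.36 and -0.42. Of 12 other tubulins tested in young mice 1 rose and 1 fell, and of 13 in older mice 2 rose, counts near the share over all genes, with Tubb4a at 0.56 and 0.57 raised in both. Of 5 stathmin and CRMP relatives 2 rose in each cohort, of which Dpysl2 (0.40 and 0.55) rose in both. Kinases and activators that act on these proteins gave 3 rises of 13 in each cohort, led by Prkcb (1.2 and 1.88), a protein kinase C, and 1 fall in young mice. Axonal motors gave 3 rises of 11 in each, with Kif3c and Kif3a raised in both, and 1 fall in young mice. List medians were -0.09 to 0.29 in young and 0.03 to 0.64 in older 200M, beside 0.00 and -0.01 over all genes.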

How the data were processed

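Raw counts per gene came from the tables deposited by the authors, who aligned reads with STAR 2.7.1a to GRCm38 (mm10) and counted them with featureCounts (young tissues by strand; older ovary without strand) or HTSeq 0.9.1 (older pituitary and hypothalamus, without strand). Gene IDs were joined to symbols through a deposited table. Libraries shared by several tables held identical counts, and 3 count columns with ambiguous headers were not used. Genes were filtered with filterByExpr (minimum count 10), scaled by TMM and tested with edgeR 4.0.16 (R 4.3.3) quasi-likelihood F tests within a tissue and cohort, with p-values adjusted by Benjamini-Hochberg over all genes and called under 0.05. The SE of a log2 fold change was taken as its size divided by √F. Interactions used 1 fit over both tissues. DESeq2 1.42.0, other scalings, no filter, a replicate block and leaving out each library were alternatives. On simulated counts, 79.1% of genes changed 2-fold were called in young pituitary (18178 genes) and 86.6% in older pituitary (14640 genes). Of genes changed 1.5-fold, 58.8% and 55.9% were called. Members and gene lists were chosen with earlier results of these data known. The named relatives were up to 3 raised and 1 lowered per list, called in both cohorts in 200M pituitary, of smallest p in young mice. Camsap3 and Dclk1 were named in addition to this rule. Total counts per library ranged from 3321845 to 14655095, and intervals and floors cover counting error only.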

Additional observations from a re-analysis of the deposited data

Results flagged for a closer look

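In 150 groups of 4 libraries, 5 had a library far from the other 3 by Dixon's criterion, which chance alone reaches in about 1 of 20 groups. In older pituitary these were Mapt in WT replicate 1 (49.8 CPM, lowest), Dcx in WT replicate 4 (6.67 CPM, highest) and Dcx in 200H replicate 3 (12.9 CPM, lowest). The others were Stmn2 in young hypothalamus 200H replicate 1 (247 CPM, highest) and Stmn2 in older ovary 200M replicate 1 (1.64 CPM, highest).

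The test of a difference in the 200M effect between tissues passed for 26 pairs of member and comparison. Between young pituitary and hypothalamus the log2 difference was 1.39 for Stmn2, 6.48 for Stmn4, 2.29 for Gap43, 1.02 for Tubb3, 0.92 for Map2, 0.75 for Mapt and 1.12 for Dcx. In older mice it was 1.78 for Stmn2, 4.01 for Stmn4, 3.53 for Gap43, 0.82 for Tubb3, 1.5 for Map2, 0.93 for Mapt, 0.98 for Map1b, 1.93 for Dcx and 0.46 for Dpysl3. Between young pituitary and ovary it was 7.71 for Stmn4, 3.11 for Gap43, 1.58 for Tubb3 and 0.60 for Map2. In older mice it was 2.02 for Stmn2, 2.91 for Gap43, 2.10 for Tubb3, 1.45 for Map2, 1.2 for Map1b and 0.92 for Dpysl3. The pituitary had the larger effect in each of these, and the young Stmn4 values rest on a WT group without reads. Stmn4 and Gap43 are low in ovary and in WT pituitary, so the low-count filter favoured their differences from ovary.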

How the results depend on the processing

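Of 2116 alternative values for 144 member comparisons, 1973 kept their direction and side of the threshold, 66 lost the call, 40 gained it and 37 changed direction. Counts of called members that moved included the following. Without the low-count filter 2 were called for 200M against 200H in young pituitary (0 before) and 2 in older pituitary (1 before), 2 for 200M against WT and 5 for 200M against 200H in older hypothalamus (0 before for both), 9 for 200M against WT in young pituitary (7 before, with Stmn3 and Map1b gained), and 6 for young pituitary minus ovary (4 before). DESeq2 called 2 for 200M against WT and 2 for 200M against 200H in older hypothalamus, and 3 and 2 in older ovary (1 and 0 before). Removing the length trend left 0 in older ovary 200M against WT.

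Within a tissue, replicate numbers did not pair the libraries of different genotypes: same-numbered deviations correlated between -0.665 and 0.431, and in no comparison did every pair exceed 0.1. Pairing between tissues was not tested. With replicate number as a block, the pituitary effect exceeded the ovary effect for 3 members in older mice (6 before) and 1 in young mice (4 before), and 0 were called for 200M against 200H in older pituitary and 0 for 200M against WT in older ovary (1 before for both). In young pituitary that fit rests on the pairs numbered 1 and 2, and against WT it gained Map1b (adjusted p = 0.000142) and Stmn3 (0.0152) in 200M and exchanged Tubb3 (log2 0.60, adjusted p = 0.102, called before) for Stmn3 (0.0176) in 200H, by edgeR. In young pituitary minus ovary it left Stmn4 (0.105), Gap43 (0.109) and Map2 (0.104) uncalled, and in older mice Stmn2 (0.0624), Gap43 (0.0981) and Dpysl3 (0.165), by edgeR.

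Leaving out 1 library gave 0 to 1 member calls for 200M against 200H in older pituitary, 0 to 2 for 200M against WT in older hypothalamus, and 0 to 1 for 200M against WT and for 200M against 200H in older ovary.

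Directions changed for small, uncalled values. Under the block Dpysl3 was at 0.07 for young pituitary minus hypothalamus, 0.06 for young pituitary minus ovary, 0.08 in the pituitary of young 200M and 0.03 in that of young 200H, and Tubb3 at -0.01 for older 200M against 200H. Without the filter Dpysl3 was at 0.03 for young pituitary minus ovary and 0.01 in young 200M. With the length trend removed Map1b was at -0.04 in young 200H pituitary, and Gap43 at -0.03 and Mapt at 0.00 in older 200M hypothalamus. Over left-out libraries the log2 values ran from -0.49 to 1.14 for Stmn3 and -0.13 to 0.27 for Mapt in older pituitary minus ovary, from -0.13 to 0.05 for Dpysl3 in young pituitary minus hypothalamus, -0.12 to 0.08 in young pituitary minus ovary and -0.11 to 0.06 in young 200M pituitary, from -0.04 to 0.14 for Map1b in young 200H pituitary, -0.09 to 0.07 for Stmn3 in young 200M against 200H, from -0.05 to 0.14 for Tubb3, -0.02 to 0.16 for Map1b and -0.02 to 0.09 for Dcx in older 200M against 200H, and from -0.26 to 0.05 for Stmn2 in older 200M ovary. The cause of these changes was not tested. Depth limits Stmn4, Gap43 and Stmn2 in WT pituitary, where groups held 0 to 52 reads.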
